A study of Homo sapiens with 12 samples.

Results

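Mitotic G2/M genes are expressed mainly late in the cell cycle and build, drive or dismantle mitosis. The set examined here held 45 listed symbols, found by exact match among the 26475 gene symbols of each library, and all 45 were present and had enough counts to be tested in every group taken alone (27 to 6568 counts per gene and library). They were sorted by role into 12 genes of mitotic entry, 5 of the spindle checkpoint, 7 of the kinetochore and the chromosomal passenger complex, 13 of the spindle, 3 of chromosome structure and 5 of mitotic exit and cell division. The libraries came from SUM159PT (SUM159), an established human triple-negative breast carcinoma line, injected into female NOD scid gamma mice, which were 8 weeks old at that point and lack lymphocytes but keep macrophages, neutrophils, fibroblasts and vessels of their own. The hosts ate standard food (control) or a fasting-mimicking diet (FMD), a periodic diet low in calories and protein, given in cycles of 4 days in a row each week. Tumours were taken apart and stained with antibodies to both human antigens, CD44 and CD24, and a cell sorter collected CD44-positive cells of low (CD24-low) and of high (CD24-high) CD24 staining, which the submitters' design treats as stem-like and differentiated cells. The 4 groups of 3 libraries were therefore control CD24-low, FMD CD24-low, control CD24-high and FMD CD24-high, all from the same line and host strain and with no drug or genetic change named in the labels.

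The control CD24-low, control CD24-high and FMD CD24-high libraries held at least 29049144 counts each, and the 3 FMD CD24-low libraries 17736610, 18228815 and 18579816. The first principal component of the log2 values held 57.4% of the variance and set the FMD CD24-low libraries (79.5 to 88.9) apart from the other 9 (at most 2.35). All 12 genes chosen to mark the carcinoma line, such as KRT5, KRT14, VIM and CD44, averaged 10 CPM or more in every group. The labels do not say whether replicates were separate mice, so the p-values measure the spread between these samples, which may be technical. No source used here says if mouse reads were filtered out before counting.

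Entry into mitosis depends on the kinase CDK1 bound to cyclin B, which is switched on by CDC25 phosphatases and helped by PLK1 and AURKA. The spindle checkpoint (BUB1, BUB1B, TTK, MAD2L1) then holds the anaphase-promoting complex, a ubiquitin ligase, until every kinetochore is attached, after which CDC20 and UBE2C help it to destroy cyclin B and securin. Most of these genes share a way of being switched: the MuvB proteins bind a short promoter element called the cell cycle genes homology region (CHR), as part of the DREAM repressor in resting cells and together with B-MYB and FOXM1 in G2, and the trimeric factor NF-Y binds CCAAT boxes nearby.

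Promoter stretches of 4 members are printed because they show that shared layout: CKS1B and CKS2, paralogues that moved in opposite directions in CD24-low cells, CDC20, which activates the anaphase-promoting complex, and KIF11, the motor that pushes spindle poles apart. Each runs 5′ to 3′ on the plus strand, which is the coding strand of all 4 genes, from 150 to 21 bases before the RefSeq start (GRCh38.p14). Capitals mark matches to a CHR (the letters TTTGAA, with TTCGAA as a second accepted form, on either strand, so that TTCAAA is the first form read on the other strand) and to the CCAAT box (ATTGG if on the other strand). The stretches are chr1:154974531-154974660, chr9:89311045-89311174, chr1:43358831-43358960 and chr10:92592980-92593109, and 8, 0, 6 and 0 of their 130 bases lie in the first exon that GENCODE version 29 gives the same gene, CKS1B or CDC20, which it starts before RefSeq does. The rest lies upstream of the gene.
CKS1B: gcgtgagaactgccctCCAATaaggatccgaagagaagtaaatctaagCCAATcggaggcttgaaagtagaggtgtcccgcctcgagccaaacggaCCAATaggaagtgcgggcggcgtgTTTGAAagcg
CKS2: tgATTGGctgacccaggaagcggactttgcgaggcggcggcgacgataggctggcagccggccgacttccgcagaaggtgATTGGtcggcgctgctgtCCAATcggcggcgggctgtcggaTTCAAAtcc
CDC20: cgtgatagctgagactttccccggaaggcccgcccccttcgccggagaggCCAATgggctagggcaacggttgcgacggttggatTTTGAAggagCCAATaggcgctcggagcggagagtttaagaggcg
KIF11: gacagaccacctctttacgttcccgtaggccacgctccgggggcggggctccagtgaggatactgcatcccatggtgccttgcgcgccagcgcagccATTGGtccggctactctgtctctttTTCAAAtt

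RefSeq promoters (250 bases before to 50 after a start) were on hand for 39 of the 45 genes, 49 promoters in all; AURKA, FOXM1, TTK, BIRC5, TPX2 and UBE2C are named only. A CHR stood in 34 of the 49 (69.4%), against 16.4% of all 35116 promoters, 12.4% of the promoters of genes tested and 64.4% of those of 65 other mitotic genes described below. By contrast, 4.17% of the promoters of 42 DNA replication and G1/S genes held one. CCAAT was in 75.5% of the mitotic promoters, in 60.4% of those of G1/S genes and in 34.6% of all promoters. Both motifs occurred together in 57.1% of the mitotic promoters and in 6.38% of all promoters. A CHR and a CCAAT match shared 1 base in 2 mitotic promoters, those of CDCA8 and MKI67. Of 35 CHR matches in the 33 genes with a single promoter, 25 began between 60 bases before and 10 after the start. These are letter matches, not measured sites. In CD24-low cells the median log2 difference between diets was -0.69 over the 31 genes with a CHR match and -0.77 over the 8 without one.

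**Figure D1:**
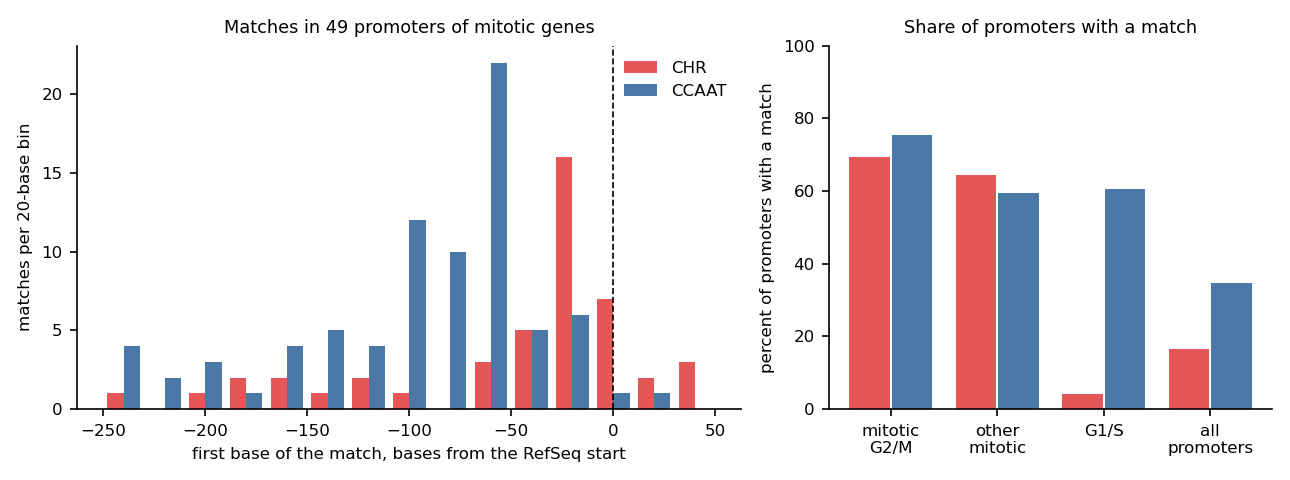
Left, position of each CHR and CCAAT match in the 49 promoters of the mitotic genes, as the first base relative to the RefSeq start (dashed line), in matches per 20-base bin; a gene with several promoters can contribute a site more than once. Right, percent of promoters with a match in the mitotic genes (69.4% CHR, 75.5% CCAAT), other mitotic genes, G1/S genes and all promoters (16.4% and 34.6%).

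The 45 genes moved together from library to library. Their summed level in replicates 1, 2 and 3 was 1402, 1508 and 1888 CPM (counts scaled to library size) in control CD24-low cells and 955, 876 and 1400 CPM in FMD CD24-low cells. In CD24-high cells it was 2264, 1726 and 1343 CPM under the control diet and 1210, 940.3 and 1595 CPM under the FMD. The lowest control CD24-low library thus lay above the highest FMD CD24-low library by a narrow margin, while the CD24-high diets overlapped. Control CD24-high replicate 1 was the highest of the 12 libraries for 40 of the 45 genes, and FMD CD24-low replicate 2 the lowest for 29. Within each group 1 library was the highest for nearly the whole set, while the lowest library was less uniform. Replicate 3 was the highest in 41 genes in control CD24-low, 43 in FMD CD24-low and 40 in FMD CD24-high cells, whereas replicate 3 of control CD24-high was the lowest in 42. Under the FMD, replicate 2 was the lowest in 34 genes in CD24-low and in 40 in CD24-high cells. In control CD24-low cells the lowest was replicate 1 in 29 genes and replicate 2 in 16. The coefficient of variation of a gene between replicates had a median over the 45 genes of 17.7% in control CD24-low, 34.1% in FMD CD24-low, 30.6% in control CD24-high and 32.2% in FMD CD24-high cells, against 12.3%, 15.1%, 15.9% and 14.96% over all 15461 genes tested.

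**Figure D2:**
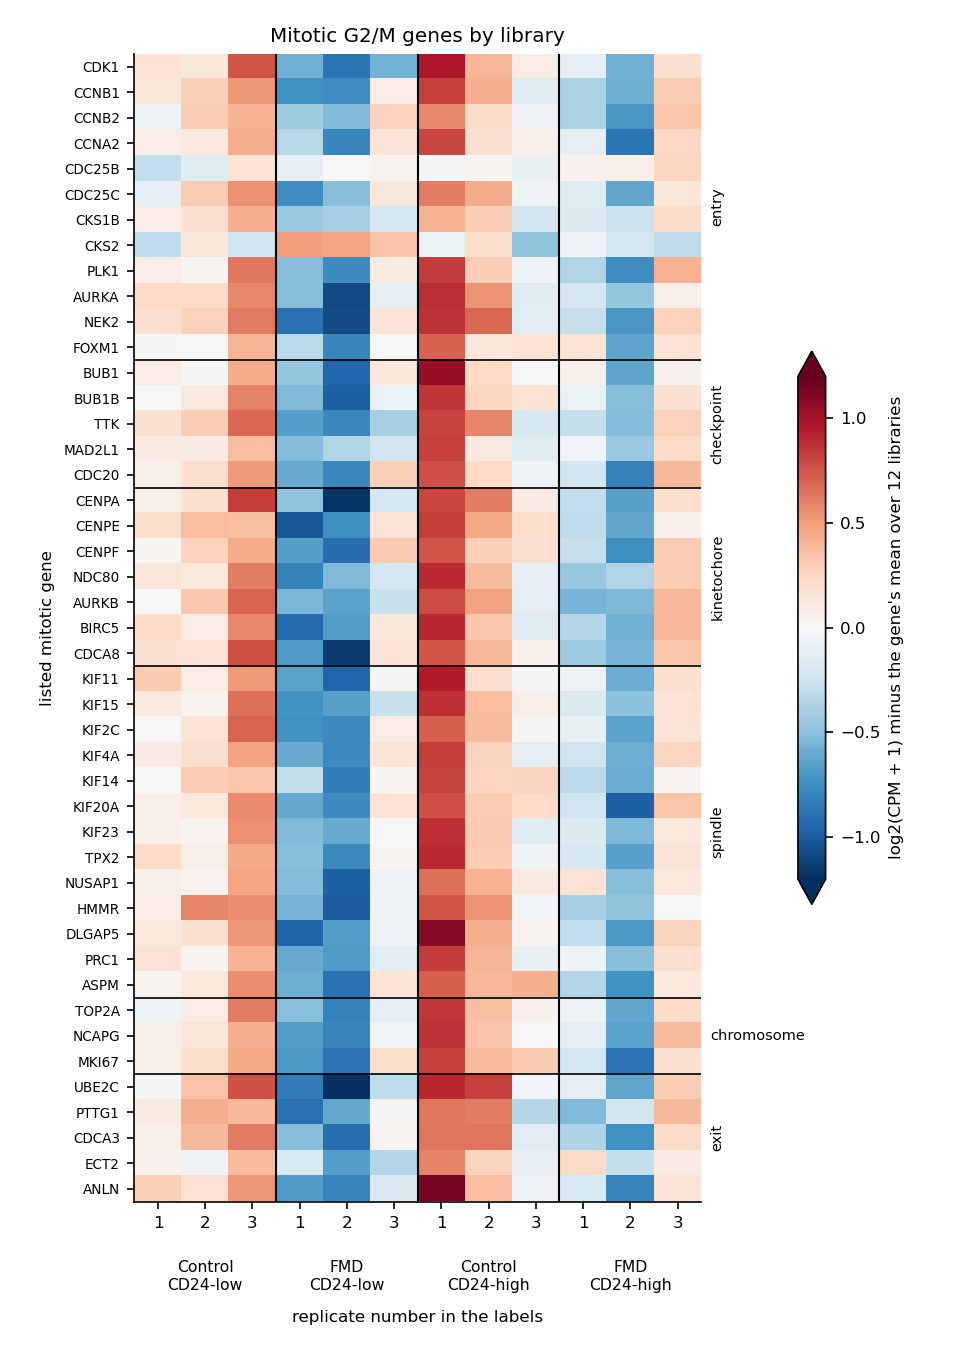
Level of each of the 45 genes (rows, grouped by role) in each of the 12 libraries (columns, grouped by diet and population), as log2(CPM + 1) minus the gene's mean over the 12 libraries; red is above and blue below that mean. Control CD24-high replicate 1 is the reddest column. CKS2 is higher in each FMD CD24-low library than in the control CD24-low libraries, and CDC25B lacks the lower FMD levels of most other rows.

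The first question was which mitotic genes differed in CD24-low cells after the FMD. In FMD CD24-low cells 8 of the 45 genes were lower than in control CD24-low cells: TTK, UBE2C, CENPA, CDK1, HMMR, KIF15, AURKA and CKS1B. A single gene, CKS2, was higher (adjusted p below 0.05 over all genes tested, edgeR). Among all 15461 genes, 4.33% were called lower and 12% higher. A difference below 0 was measured for 43 of the 45 genes (53.2% of all genes), with a median log2 fold change of -0.74 against -0.03 over all genes. The groups did not overlap in 28 genes that were lower under the FMD (17.8% of all genes) and in 1 that was higher (19.7%). At an unadjusted p below 0.05, 30 of the 45 were lower (13.4% of all genes). DESeq2 called 13 lower and 1 higher, against 750 lower and 2188 higher among all 15461 genes. In bulk RNA, fewer cells in mitosis and less of these RNAs per cell cannot be told apart.

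These calls rested on few libraries. None of the 9 genes passed without control CD24-low replicate 3, FMD CD24-low replicate 1 or FMD CD24-low replicate 2; without them CDK1 had an adjusted p of up to 0.0774 and the median over the 45 genes stayed between -1.09 and -0.56 over the 12 fits that each left out 1 library. Without FMD CD24-low replicate 3, the highest library of its group for 43 genes, 25 genes were lower. The count of lower genes was 5 without control CD24-low replicate 1, 3 without control CD24-low replicate 2 and 4 without FMD CD24-high replicate 1.

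Markers of other cell types differed between the same libraries. The cells had been sorted with antibodies to human CD44 and CD24, and the purity of the sort was not tested here. The 15 white blood cell markers summed to 149.7 to 160 CPM in control CD24-low cells and 740 to 773 CPM in FMD CD24-low cells. Of the 13 that could be tested 9 were higher (12% of all genes), with TYROBP at 0 counts in the FMD CD24-low libraries. In CD24-high cells the same sum was 129 to 190 CPM under the control diet and 161 to 189 CPM under the FMD. The 15 fibroblast markers summed to 21750 to 37640 CPM in control and 48980 to 72190 CPM in FMD CD24-low cells, and to 18020 to 32350 and 16310 to 19970 CPM in CD24-high cells. Of these 15, 7 were higher in FMD CD24-low cells (12% of all genes) and none had 0 counts in a group. In each control group 12 of the 15 stood at 10 CPM or more, against 4 of the 15 white blood cell and 1 of the 13 vessel cell markers. The 13 vessel cell markers summed to 68.7 to 72.7 and 93.9 to 137 CPM in CD24-low cells, and to 59.9 to 78.6 and 57.2 to 88.8 CPM in CD24-high cells. In FMD CD24-low cells 2 of the 11 tested were higher, against 12% of all genes. Of the 13, 8 averaged below 1 CPM in control CD24-low cells and 6 in FMD CD24-low cells. The 12 genes of the carcinoma line summed to 16580 to 17430 CPM in control and 12310 to 14070 CPM in FMD CD24-low cells. Of the 12, 3 were lower (KRT5, KRT14 and KRT18), against 4.33% of all genes, and the median log2 fold change was -0.34. In CD24-high cells the 12 genes summed to 14340 to 19590 CPM under the control diet and 14230 to 17320 CPM under the FMD. Whether other cells were present, and their part in the mitotic values, was not tested.

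**Figure D3:**
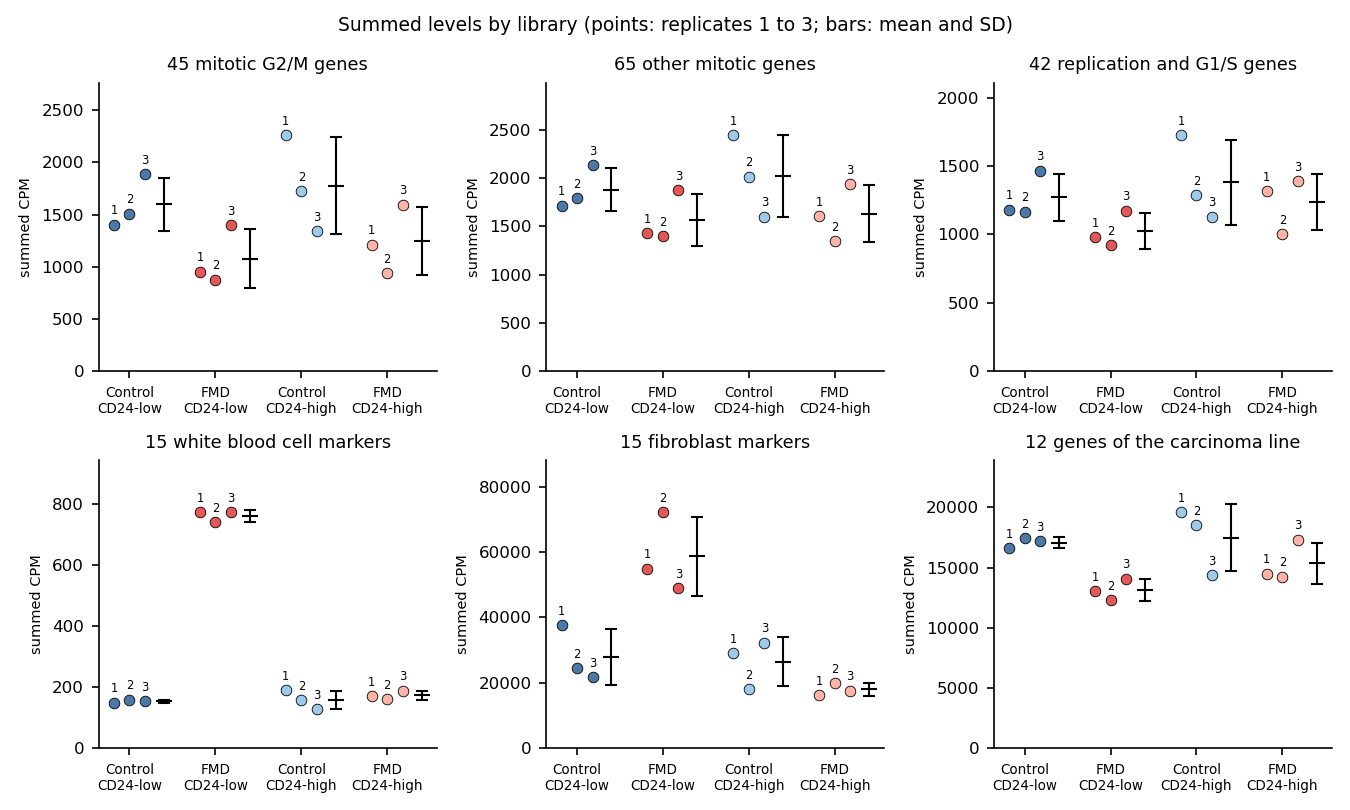
Summed CPM per library (points, labelled by replicate number; bars to the right, mean and SD, n = 3) of the 45 mitotic genes, 65 other mitotic genes, 42 replication and G1/S genes and 3 marker lists, in the 4 groups. White blood cell and fibroblast markers are highest in the 3 FMD CD24-low libraries, and the 45 mitotic genes are lowest in FMD CD24-low replicates 1 and 2 and FMD CD24-high replicate 2.

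Of the 12 genes of mitotic entry, 3 were lower, 1 was higher and 8 did not pass, with a median log2 fold change of -0.63. CDK1, the kinase that starts mitosis (chromosome 10, 60778331 to 60794852), stood at 23.8, 23.4 and 36.5 CPM in control CD24-low replicates 1, 2 and 3 and at 13.8, 11.1 and 14 CPM in the FMD libraries. All FMD values lay under all control values, and the 3 FMD libraries were close together. CDK1 fell by 1.10 ± 0.27 (log2 ± standard error, adjusted p = 0.0142) and was called in 9 of the 12 fits that each left out 1 library. AURKA, the kinase that matures the spindle poles (chromosome 20, 56369390 to 56392215), had 17.7, 17.6 and 22.6 CPM in control and 10.1, 6.48 and 13.6 CPM in FMD CD24-low cells. Its groups did not overlap, with FMD replicate 2 far the lowest, and it fell by 0.94 ± 0.29 (adjusted p = 0.0470, called in 3 of the 12 fits).

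CKS1B and CKS2 encode the small proteins that ride on cyclin-dependent kinases and help them to grip phosphorylated targets. CKS1B (chromosome 1, 154974681 to 154979251) stood at 28.2, 30.6 and 36.1 CPM in control and 19.2, 19.7 and 23 CPM in FMD CD24-low cells, with no overlap, and fell by 0.62 ± 0.18 (adjusted p = 0.0368, called in 6 of the 12 fits). CKS2 (chromosome 9, 89311195 to 89316703) went the other way: it had 43.1, 59.05 and 45.6 CPM in control and 76.4, 74.8 and 68.1 CPM in FMD CD24-low cells. All 3 FMD libraries were above the highest control library. CKS2 rose by 0.57 ± 0.17 (adjusted p = 0.0339, called in 8 of the 12 fits), and the 4 fits without the call were those without control CD24-low replicate 1 or 3 or FMD CD24-low replicate 1 or 2. CKS1B has near-identical processed copies elsewhere in the genome, so its count may be uncertain.

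CDC25B, a phosphatase that activates CDK1 at the centrosome (chromosome 20, 3786951 to 3806115), had 116, 129 and 160.0 CPM in control and 134, 143 and 147 CPM in FMD CD24-low cells. These groups overlapped and the log2 difference was 0.07 ± 0.12 (adjusted p = 0.758); it was -0.04 without control CD24-low replicate 1. Its relative CDC25C, which acts as mitosis begins, stood at 3.09, 4.40 and 5.41 CPM in control and 1.60, 2.06 and 3.80 CPM in FMD CD24-low cells (-0.78 ± 0.36, adjusted p = 0.165). The second phosphatase thus had a negative difference and overlapping groups, and did not pass.

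CCNB1, the main cyclin of CDK1 in mitosis, had 72.7, 80.7 and 94.5 CPM in control and 39.4, 38.8 and 70.1 CPM in FMD CD24-low cells. Its groups did not overlap, yet replicate 3 of the FMD was near the lowest control library, and the difference did not pass (-0.74 ± 0.31, adjusted p = 0.124). FOXM1, the transcription factor that switches on G2/M genes, had 40.4, 40.98 and 54.5 CPM in control and 32.4, 23.4 and 40.9 CPM in FMD CD24-low cells. FOXM1 overlapped between diets through FMD replicate 3 (-0.49 ± 0.26, adjusted p = 0.217). The other members of this role, CCNB2, CCNA2, PLK1 and NEK2, a centrosome kinase, had log2 differences of -0.43, -0.53, -0.64 and -0.98, and adjusted p of 0.127 (NEK2) to 0.354 (CCNB2).

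**Figure D4:**
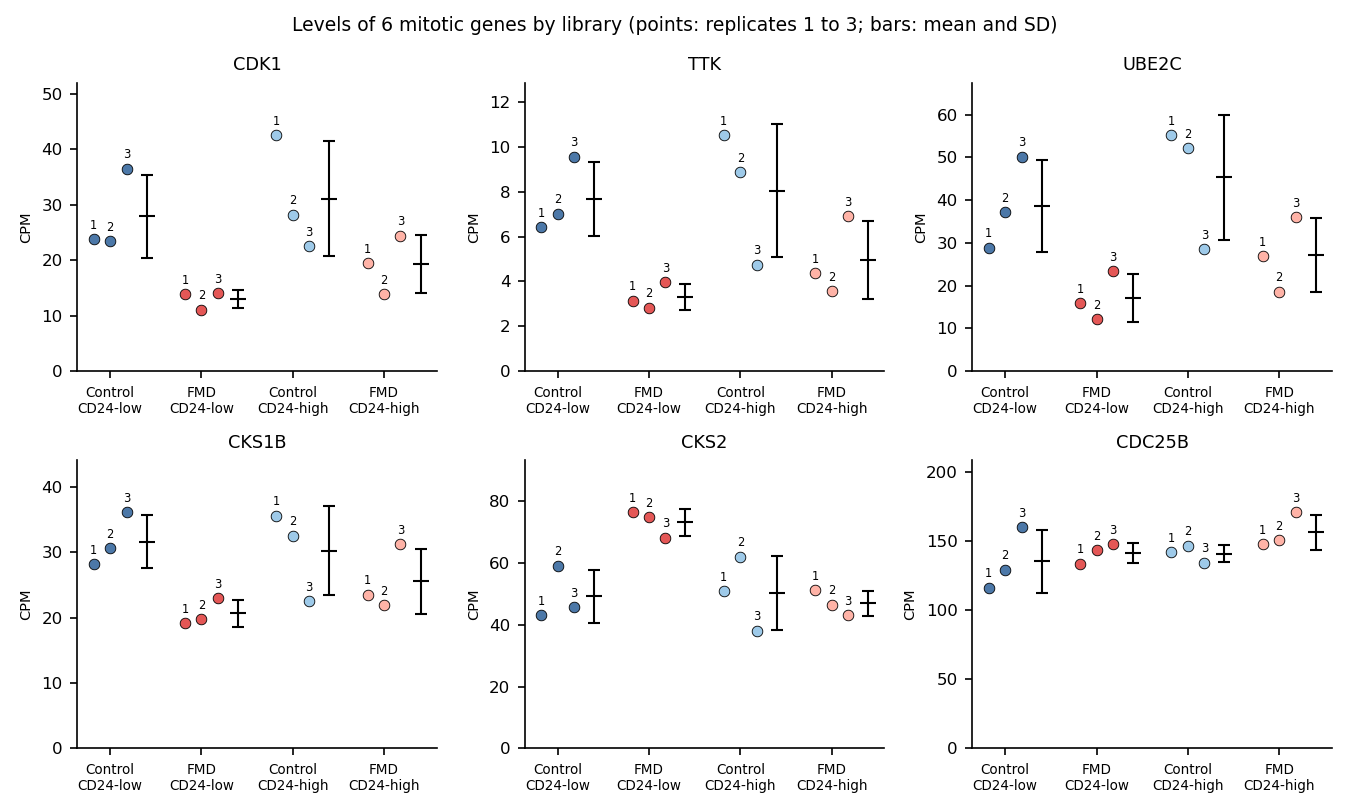
CPM of CDK1, TTK, UBE2C, CKS1B, CKS2 and CDC25B in each library (points, labelled by replicate number) with the mean and SD of each group to the right (n = 3). The first 4 genes are lower in the 3 FMD CD24-low libraries than in any control CD24-low library, CKS2 is higher there, and CDC25B overlaps.

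In the spindle checkpoint 1 of 5 genes passed, and the median was -0.62. TTK, the MPS1 kinase that recruits checkpoint proteins to kinetochores (chromosome 6, 80004649 to 80042527), had 6.42, 7.02 and 9.56 CPM in control and 3.15, 2.83 and 3.96 CPM in FMD CD24-low cells. No FMD library reached the lowest control library. TTK had the largest fitted fall of the 45 genes, 1.21 ± 0.32 (adjusted p = 0.0203, called in 9 of the 12 fits). BUB1B, the checkpoint protein BUBR1, had 16.5, 17.9 and 25.3 CPM in control and 11.04, 7.83 and 15.5 CPM in FMD CD24-low cells (-0.79 ± 0.28, adjusted p = 0.0768). CDC20 had 51.97, 57.1 and 70.9 CPM in control and 32.2, 28.4 and 60.7 CPM in FMD CD24-low cells (-0.57 ± 0.35, adjusted p = 0.298). BUB1B did not overlap, while CDC20 overlapped because FMD replicate 3 stood above 2 of the control libraries. MAD2L1, the MAD2 inhibitor of CDC20, and BUB1, a checkpoint kinase at the kinetochore, had log2 differences of -0.61 and -0.60 and did not pass.

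At the kinetochore and in the passenger complex 1 of 7 genes passed, and the median was -0.91. CENPA, the histone that marks the centromere (chromosome 2, 26786056 to 26794589), had 6.82, 7.56 and 12.2 CPM in control and 4.33, 2.30 and 5.48 CPM in FMD CD24-low cells. It fell by 1.13 ± 0.36 (adjusted p = 0.0480, called in 4 of the 12 fits), with its lowest value in FMD replicate 2. NDC80, which grips microtubules, had 9.60, 9.44 and 13.6 CPM in control and 4.45, 5.65 and 7.27 CPM in FMD CD24-low cells (-0.91 ± 0.31, adjusted p = 0.0628). AURKB, the kinase of the passenger complex, had 8.16, 10.5 and 13.9 CPM in control and 5.28, 4.89 and 6.62 CPM in FMD CD24-low cells (-0.95 ± 0.33, adjusted p = 0.0711). Both lay lower in every FMD library without passing the threshold. CENPE, a kinetochore motor, had 18.4, 20.6 and 20.5 CPM in control and 7.30, 9.07 and 17.7 CPM in FMD CD24-low cells: replicates 1 and 2 were under 10 CPM and replicate 3 was near the controls (-0.80 ± 0.29, adjusted p = 0.0855). Without that replicate its adjusted p was 0.00395. The passenger proteins BIRC5 (survivin) and CDCA8 (borealin) and the kinetochore protein CENPF had log2 differences of -0.75, -0.93 and -0.58 and did not pass.

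Among the 13 spindle genes 2 passed, and the median was -0.69. HMMR, which binds microtubules at spindle poles (chromosome 5, 163460632 to 163491941), had 8.77, 12.8 and 12.5 CPM in control and 5.22, 3.59 and 7.76 CPM in FMD CD24-low cells, and fell by 1.03 ± 0.29 (adjusted p = 0.0279, called in 8 of the 12 fits). KIF15, a motor that works beside KIF11 to keep the spindle bipolar (chromosome 3, 44761794 to 44868687), had 9.28, 8.73 and 13.9 CPM in control and 4.75, 5.00 and 6.84 CPM in FMD CD24-low cells, and fell by 0.94 ± 0.27 (adjusted p = 0.0319, called in 9 of the 12 fits). In both genes the diets did not overlap. KIF11 itself had 25.2, 21.4 and 28.96 CPM in control and 12.5, 9.89 and 20.2 CPM in FMD CD24-low cells (-0.82 ± 0.31, adjusted p = 0.0961). The other 10 were the kinesins KIF2C, KIF4A, KIF14, KIF20A and KIF23, the assembly factors TPX2, NUSAP1 and DLGAP5, PRC1, which bundles the midzone, and ASPM, a pole protein. Their log2 differences ran from -0.86 (DLGAP5) to -0.60 (KIF23), and their adjusted p from 0.0775 (PRC1) to 0.221 (KIF20A).

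No gene of chromosome structure passed (0 of 3 with edgeR and with DESeq2, 2 of 3 at an unadjusted p below 0.05, median -0.70). TOP2A, the topoisomerase that untangles sister chromatids, had 93.6, 103 and 149.6 CPM in control and 68.3, 54.9 and 89.6 CPM in FMD CD24-low cells (-0.70 ± 0.27, adjusted p = 0.102). MKI67, the Ki-67 protein that coats mitotic chromosomes, had 90.7, 99.7 and 118 CPM in control and 53.1, 45.9 and 99.9 CPM in FMD CD24-low cells (-0.63 ± 0.31, adjusted p = 0.1899). TOP2A did not overlap between diets and MKI67 did, again through FMD replicate 3. NCAPG, a condensin subunit, had a log2 difference of -0.74 and did not pass.

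Of the 5 genes of exit and cell division 1 passed, and the median was -0.85. UBE2C, the ubiquitin-conjugating enzyme of the anaphase-promoting complex (chromosome 20, 45812644 to 45816952), had 28.8, 37.1 and 50.2 CPM in control and 15.8, 12.1 and 23.3 CPM in FMD CD24-low cells. The diets did not overlap, and UBE2C fell by 1.18 ± 0.33 (adjusted p = 0.0327, called in 7 of the 12 fits). PTTG1, securin, had 73.3, 92.6 and 89.6 CPM in control and 36.2, 44.3 and 68.8 CPM in FMD CD24-low cells (-0.77 ± 0.31, adjusted p = 0.116); it has close copies in the genome and its count may be uncertain. ANLN, the anillin of the cleavage furrow, had 55.3, 51.1 and 65.6 CPM in control and 27.9, 25.7 and 39.9 CPM in FMD CD24-low cells (-0.88 ± 0.31, adjusted p = 0.0763). All 5 genes of this role were lower in every FMD library than in any control library, including CDCA3 (-0.85) and ECT2, the activator of RhoA at the furrow (-0.56).

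**Figure D5:**
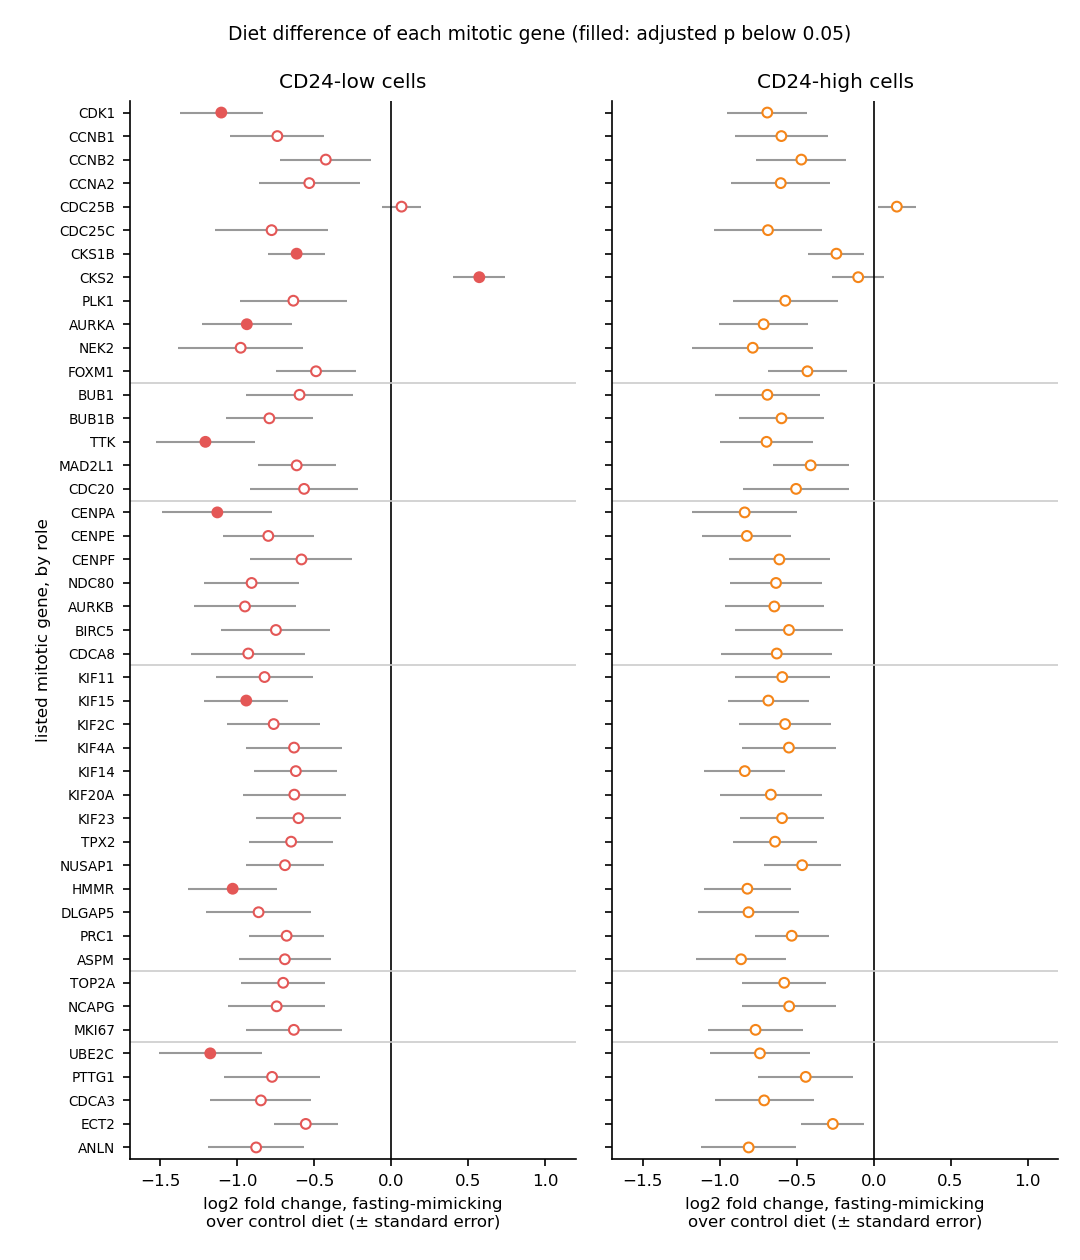
Log2 fold change of FMD over control (points, with standard errors) for each of the 45 genes, ordered by role, in CD24-low cells (left) and CD24-high cells (right); filled points passed an adjusted p of 0.05. On the left 8 filled points lie below 0 and 1, CKS2, above it, and on the right none is filled.

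Levels between genes can be compared per kilobase of exon (GENCODE version 29, merged exons). In control CD24-low cells CKS2 (80.4) and PTTG1 (74.01 CPM per kb) were the highest and KIF14 (1.13) and ASPM (1.15 CPM per kb) the lowest of the 45. CDK1 stood at 13.7, CCNB1 at 38.1, CKS1B at 21.3 and MKI67 at 8.12 CPM per kb.

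Other genes of the pathway were read from lists of related function. Of 65 other mitotic genes 13 were lower (4.33% of all genes) and 1 was higher (12%) in FMD CD24-low cells. A difference below 0 was measured for 63 of them (53.2% of all genes), and the median was -0.62. CKAP2, a spindle protein, had 34.03, 31.5 and 35.6 CPM in control and 15.6, 15.01 and 23.5 CPM in FMD CD24-low cells (-0.90 ± 0.19, adjusted p = 0.00503), and the kinesin KIF18B fell by 1.16 ± 0.27 (adjusted p = 0.0104). The exception was LMNB1, the B-type lamin of the nuclear envelope, with 50.4, 53.4 and 64.1 CPM in control and 147, 192 and 238 CPM in FMD CD24-low cells (1.78 ± 0.26, adjusted p = 0.000594).

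For the lists that follow, edgeR called 12% of all genes higher and 4.33% lower, and DESeq2 called 2188 and 750 of the 15461 genes. At an unadjusted p below 0.05 (edgeR) 17.6% were higher and 13.4% lower, and 53.2% had a difference below 0. The 17 subunits and partners of the anaphase-promoting complex did not shift as a list (median 0.00). At an unadjusted p below 0.05, 2 were higher and 3 lower. Of the 17, 2 were called higher and 0 lower with edgeR and with DESeq2. The 2 were CDC27, a scaffold subunit (0.82 ± 0.12, adjusted p = 0.000532), and ANAPC5 (0.41 ± 0.12, adjusted p = 0.0284). Of 15 genes of MuvB, DREAM and NF-Y, 1 was higher, LIN54, the subunit that reads the CHR (1.05 ± 0.19, adjusted p = 0.00166), and 1 was lower, TFDP1, a partner of E2F factors (-0.40 ± 0.11, adjusted p = 0.0214). The median of that list was -0.02. Among 13 kinases and inhibitors that hold cells before mitosis, 3 were higher and 1 was lower (median -0.23). GADD45G, a stress-induced inhibitor of CDK1, rose by 2.46 ± 0.30 (adjusted p = 0.000145) and the antiproliferative BTG1 by 1.02 ± 0.19 (adjusted p = 0.00264), while SFN, the 14-3-3 sigma protein, fell by 0.84 ± 0.21 (adjusted p = 0.0170). The 42 replication and G1/S genes had 41 differences below 0 and a median of -0.38, but none passed (edgeR 0; DESeq2 1 lower; 10 lower and 0 higher at an unadjusted p below 0.05). UHRF1, which copies DNA methylation, had an adjusted p of 0.0530 (-0.71 ± 0.23) and ORC6, a subunit of the origin recognition complex, 0.0741 (-0.66 ± 0.24). All of these comparisons share the control CD24-low and FMD CD24-low libraries, in which the markers of other cell types given above differed.

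The same comparison in CD24-high cells called none of the 45 genes with edgeR or DESeq2. Among all 15461 genes edgeR called 0.0% in either direction, and DESeq2 called 37 higher and 41 lower. At an unadjusted p below 0.05, 16 of the 45 were lower (3.5% of all genes) and 0 higher (3.24%). The difference was below 0 in 44 of them (51.0% of all genes), with a median of -0.61 against 0.00 over all genes. Diets did not overlap in 4 lower genes (4.72% of all genes), CENPE, KIF14, ASPM and MKI67, and in 1 higher gene, CDC25B (4.48%). KIF14, a kinesin of the midbody, had 12.9, 8.48 and 8.59 CPM in control and 5.35, 4.26 and 7.15 CPM in FMD CD24-high cells (-0.84 ± 0.26) and the lowest adjusted p of the set, 0.546. MKI67 had 153, 112 and 107 CPM in control and 74.3, 45.9 and 98.3 CPM in FMD CD24-high cells (-0.77 ± 0.31, adjusted p = 0.682). In ASPM the levels were 17.5, 13.9 and 14.1 CPM in control and 7.87, 5.82 and 11.3 CPM in FMD CD24-high cells (-0.86 ± 0.29, adjusted p = 0.563). Each of these genes was lower in all 3 FMD libraries.

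The genes called in CD24-low cells had smaller fitted differences in CD24-high cells. They were picked by their values in CD24-low cells, so smaller values elsewhere can follow from that choice alone. Over all 45 genes the medians were -0.74 in CD24-low and -0.61 in CD24-high cells. The fitted diet difference was lower in CD24-low than in CD24-high cells in 35 of the 45 genes and higher in 10. Among all 15461 genes it was lower in 8450 and higher in 7011. CDK1 had 42.6, 28.2 and 22.5 CPM in control and 19.5, 13.9 and 24.4 CPM in FMD CD24-high cells (-0.69 ± 0.26, adjusted p = 0.638). TTK had 10.5, 8.86 and 4.75 CPM and 4.38, 3.57 and 6.92 CPM (-0.70 ± 0.30, adjusted p = 0.707), and UBE2C 55.3, 52.2 and 28.5 CPM and 26.8, 18.6 and 36.03 CPM (-0.74 ± 0.32, adjusted p = 0.724). All 3 overlapped between diets because control replicate 3 was low and FMD replicate 3 high. CKS1B had 35.6, 32.5 and 22.5 CPM and 23.5, 21.9 and 31.2 CPM (-0.24 ± 0.18), and CKS2 50.8, 62.1 and 38.1 CPM and 51.1, 46.5 and 43.2 CPM (-0.10 ± 0.17, adjusted p = 0.998). CDC25B had 142, 146 and 134 CPM and 148, 150.4 and 171 CPM (0.15 ± 0.12, adjusted p = 0.928).

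Whether the diet difference itself differed between the populations was tested directly. No member passed with edgeR or DESeq2 (4.07% of all genes were called higher and 0.0517% lower), and 1, CKS2, had an unadjusted p below 0.05 with a higher difference in CD24-low cells (11.8% of all genes), while 0 had one with a lower difference (3.37%). The median of the 45 differences between the diet effects was -0.14 (all genes -0.04) and ran from -0.47 to 0.14 when each library was left out in turn, so its sign depended on single libraries. For CKS2 the diet effect in CD24-low cells exceeded that in CD24-high cells by 0.67 ± 0.24 (adjusted p = 0.161). With a block by replicate number within each diet, which the FMD libraries call for, and likewise without control CD24-high replicate 3, CKS2 passed as the only member.

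Averaged over both populations, 18 of the 45 genes were lower under the FMD and 0 higher with edgeR (41 and 0 at an unadjusted p below 0.05). DESeq2 called 33 lower and 0 higher, against 722 lower and 1716 higher among all 15461 genes. These fits take the CD24-low and CD24-high libraries of a diet as independent, although under the FMD those of the same number deviated together. Under the control diet those numbered 1 and 2 did so too (correlations of 0.44 and 0.52). The log2 levels of the CD24-low and CD24-high libraries were also averaged into 1 value per diet and number, 3 against 3. A limma test of these, chosen after the data had been seen, called 5 genes lower and 0 higher (0.524% and 3.13% of all genes). The 5 were CDK1 (-0.88, adjusted p = 0.0196), TTK, HMMR, KIF15 and UBE2C, and the median over the 45 was -0.69. At an unadjusted p below 0.05 that test had 41 lower genes (7.1% of all genes). In the fit over single libraries, of all genes 3.32% were called lower and 7.74% higher, and 12% were lower at the unadjusted threshold. The median was -0.67 against -0.01 over all genes. By role, 3 of 12 entry, 2 of 5 checkpoint, 4 of 7 kinetochore, 6 of 13 spindle, 0 of 3 chromosome and 3 of 5 exit genes fell. CDK1 (-0.90 ± 0.19, adjusted p = 0.0103) and HMMR (-0.93 ± 0.20, adjusted p = 0.0119) were called in all 12 fits that left out a library, TTK (-0.95 ± 0.22) in 11 and KIF15 (-0.81 ± 0.19) in 10. The other genes that fell were UBE2C, AURKA, CENPA, KIF14, CENPE, ANLN, ASPM, NDC80, PRC1, BUB1B, DLGAP5, AURKB, CDCA3 and CKS1B, by 0.98 ± 0.25 (CENPA) to 0.43 ± 0.13 (CKS1B). With 1 value per diet and number, UBE2C passed and the other 13 did not, with adjusted p of 0.056 (AURKA) to 0.111 (CKS1B). CKS2 (0.24 ± 0.12, adjusted p = 0.214) and CDC25B (0.11 ± 0.09, adjusted p = 0.455) had positive values that did not pass.

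This average includes the CD24-low libraries described above and moved with single libraries. The 18 became 2 without FMD CD24-low replicate 2, 3 without FMD CD24-low replicate 1 and 4 without control CD24-low replicate 3, control CD24-high replicate 1, FMD CD24-high replicate 1 or FMD CD24-high replicate 2. They became 9 without control CD24-high replicate 2 and 11 without control CD24-low replicate 1. Without FMD CD24-high replicate 3 and FMD CD24-low replicate 3 they became 29 and 35. In the same average 23 of the 65 other mitotic genes were lower (3.32% of all genes) and 1 was higher (7.74%), with a median of -0.55. The lower ones were led by CKAP2, KIF18B (-0.97 ± 0.19, adjusted p = 0.00658) and the centromere protector SGO2 (-1.07 ± 0.23, adjusted p = 0.0113). Of the 42 G1/S genes 3 were lower (3.32% of all genes) and 0 higher (7.74%), with a median of -0.28 over the list. The 3 were UHRF1, GMNN, the inhibitor of relicensing, and GINS2, a helicase subunit. With 1 value per diet and number 4 of the 65 were lower (0.524% of all genes) and 1 was higher (3.13%). UHRF1, GMNN and GINS2 did not pass there (adjusted p = 0.0936, 0.124 and 0.0754 with limma).

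Between the sorted populations 1 of the 45 genes, CKS2, passed the test, under the FMD. Under the control diet none of the 45 passed with edgeR or DESeq2 and none had an unadjusted p below 0.05 (0.181% of all genes higher and 0.407% lower at that threshold), and none was called among all genes (0.0%). The median of CD24-high over CD24-low was 0.15 (all genes 0.00), and it ran from -0.08 to 0.34 over the fits that left out a library. Under the FMD, CKS2 was lower in CD24-high cells (12.2% of all genes were called lower) and no member was higher (1.84%). CKS2 stood at 76.4, 74.8 and 68.1 CPM in FMD CD24-low and 51.1, 46.5 and 43.2 CPM in FMD CD24-high cells, with no overlap. The log2 difference was -0.64 ± 0.17 (adjusted p = 0.0198), and the call was lost without FMD CD24-low replicate 1 or 2 or FMD CD24-high replicate 2 or 3 (adjusted p up to 0.0735). The median over the 45 genes was 0.31 (all genes 0.06), and 43 of the 45 values were positive (56.9% of all genes). UBE2C (0.67 ± 0.33), TTK (0.58 ± 0.32) and CDK1 (0.57 ± 0.27) had the largest positive values, with adjusted p of 0.232, 0.276 and 0.200.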

How the data were processed

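RNA of sorted SUM159PT tumour cells was sequenced as stranded mRNA libraries (TruSeq), and reads were aligned with STAR to hg38, per the submitters' processing notes; its version and the annotation are not given in the sources used here. Raw counts per gene symbol were deposited, and the column of the reverse strand was used (opposite strand 1.59% to 1.75% of reads). Totals ran from 17736610 to 47587142 counts. The 12 libraries were fitted together with edgeR 4.0.16 in R 4.3.3 (quasi-likelihood, robust, TMM; default filter, 15461 genes tested and 11014 left out; 8 residual degrees of freedom; biological coefficient of variation 0.19). A call means a p, adjusted by Benjamini and Hochberg over the 15461 genes, below 0.05. CPM use TMM-scaled library sizes, and a standard error is the absolute log2 fold change over the square root of F. Gene positions are from RefSeq (GRCh38.p14) and exon lengths from GENCODE version 29. Lists of other genes use current symbols, 4 of which matched through an older one. From them up to 3 called genes with the smallest p were named per comparison, or 2 with the smallest p where none was called, while any of the 45 could be named.

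Within the FMD, libraries of CD24-low and CD24-high cells with the same number deviated together (correlations of 0.29 to 0.49, others -0.37 to -0.04). These numbers thus pair the samples by the data. Under the control diet the pairs numbered 1 and 2 did so too (0.44 and 0.52) and pair 3 did not (0.04), with others at -0.55 to 0.17. Alternatives were RLE scaling, both strands counted together, DESeq2 1.42.0, testing without the filter, the compared groups alone, replicate blocks, 1 mean log2 CPM per diet and number with limma 3.58.1, thinning to the smallest total and leaving out each library. The scripts were tested on simulated data. The 45 genes and the other lists were chosen with earlier results of these data known.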

Additional observations from a re-analysis of the deposited data

Results flagged for a closer look

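The diet difference itself differed between CD24-low and CD24-high cells, by a test of that difference over all genes (edgeR), in 3 genes of the related lists, GADD45G, LMNB1 and CDC27. They were 3 of the 152 genes of the related lists that could be tested (1.97%), against 4.07% of all genes. None of the 45 listed mitotic genes was among them. GADD45G, a stress-induced inhibitor of CDK1, had 6.47, 6.89 and 2.73 CPM in control CD24-low replicates 1, 2 and 3 and 22.9, 33.3 and 32.7 CPM in FMD CD24-low, against 3.18, 2.93 and 4.41 CPM in control CD24-high and 1.29, 1.32 and 1.74 CPM in FMD CD24-high cells. Its diet effect was 3.73 higher in CD24-low cells on the log2 scale (adjusted p = 0.000593). LMNB1, a nuclear lamin, had 50.4, 53.4 and 64.1 CPM in control CD24-low and 147, 192 and 238 CPM in FMD CD24-low cells, against 71.8, 53.4 and 39.2 CPM in control CD24-high and 39.8, 31.9 and 57.03 CPM in FMD CD24-high cells, a difference of 2.13 (adjusted p = 0.00588). CDC27, a scaffold subunit of the anaphase-promoting complex, had 43.3, 45.4 and 43.8 and 88.3, 78.5 and 67.2 CPM in control and FMD CD24-low cells, and 53.1, 42.8 and 44.2 and 46.9, 43 and 43.9 CPM in control and FMD CD24-high cells, a difference of 0.89 (adjusted p = 0.0110). In all 3 genes the FMD CD24-low libraries, which also had the highest white blood cell marker sums, were the highest of the 4 groups.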

How the results depend on the processing

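The median over the 45 genes kept its sign in each diet comparison under every alternative run. RLE scaling, both strands together, DESeq2, no count filter, the compared groups alone and thinning to equal depth gave -0.77 to -0.70 in CD24-low cells. Counts of called genes moved more. In CD24-low cells the 8 lower genes became 5 without a count filter, 13 with DESeq2, 13 with only the groups compared and 5 after thinning. Averaged over both populations the 18 became 10 without a count filter and 33 with DESeq2. Of the 9 genes called in CD24-low cells, 9 were kept by DESeq2, 8 by the compared groups alone and 6 without the filter or after thinning. Leaving out 1 library at a time gave 0 to 25 lower and 0 to 1 higher genes in CD24-low cells, 2 to 35 lower in the average, 0 to 1 lower between populations under the FMD and 0 to 1 higher for the difference between diet effects. The medians then ran from -1.09 to -0.56 in CD24-low cells, -0.90 to -0.34 in CD24-high cells and -0.84 to -0.54 in the average. They ran from 0.06 to 0.59 between populations under the FMD, -0.08 to 0.34 under the control diet and -0.47 to 0.14 for the difference between diet effects. Leaving out 1 library turned the sign of CDC25B in CD24-low cells (-0.0433 without control CD24-low replicate 1; up to 0.214), of CKS2 in CD24-high cells (0.0904 without control CD24-high replicate 2; down to -0.269) and of BUB1 between populations under the control diet (-0.0731 without control CD24-high replicate 1; up to 0.551). For single named genes over all alternatives, 932 values in CD24-low cells kept their side of the threshold, 41 gained and 71 lost a call. In the average these were 776, 67 and 183. Values that kept their side include those of genes without a call in either fit, so the losses are a larger share of the calls alone. The cause of these shifts was not tested.

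With a block for replicate number the lower genes were 13 in CD24-low cells and 29 in the average, although the numbers did not pair libraries across diets (same-number correlations of -0.12 to 0.08 between CD24-low and -0.22 to -0.06 between CD24-high libraries). A block within each diet, chosen after the data had been seen, called 1 gene, CKS2, higher for the difference between diet effects and changed no other call between populations. With such a block, taken as 1 mean value per diet and number (limma), the 18 lower genes of the average became 5. Fits with only the groups compared were not run for the average and the difference between diet effects, which use all 4 groups. The differences measured in CD24-high cells did not pass, which does not show that they were absent.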

Other observations

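Under the FMD 8 of the 152 tested genes of the related lists were lower in CD24-high than in CD24-low cells (5.26%, against 12.2% of all genes) and 3 were higher (1.97%, against 1.84%), and none of these 11 was among the 42 replication and G1/S genes. GADD45G (-4.34 ± 0.34, adjusted p = 5.98e-06) and BTG1 (-0.97 ± 0.19, adjusted p = 0.00341) were lower in CD24-high cells and SFN was higher (0.77 ± 0.21, adjusted p = 0.0277). LIN54 was lower there (-0.92 ± 0.18, adjusted p = 0.00373) and TFDP1 higher (0.37 ± 0.11, adjusted p = 0.0342). Among subunits of the anaphase-promoting complex CDC27 (-0.81 ± 0.12, adjusted p = 0.000561), ANAPC5 (-0.47 ± 0.12, adjusted p = 0.0146) and CDC16 (-0.39 ± 0.12, adjusted p = 0.0435) were lower in CD24-high cells. Of the 65 other mitotic genes LMNB1 was lower (-2.16 ± 0.26, adjusted p = 0.000149) and TRIP13, which disassembles checkpoint complexes, was higher (0.52 ± 0.16, adjusted p = 0.0460). These values rest on the same FMD CD24-low libraries as the diet comparison above and are not a separate observation of them.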
